A study of Mus musculus with 16 samples.

Results

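Naive CD8 T cells of mice with and without functional Tsc1 were compared at rest, on 4 of the 16 arrays of the series. All 4 arrays hold cells sorted from mice on a C57BL\6 background and measured without stimulation (0 h): 2 arrays of wild-type cells and 2 of Tsc1-deficient cells, taken by the genotype and cell type in their labels. The other arrays hold naive CD4 cells of both genotypes, either unstimulated or stimulated for 4 h through CD3 and CD28 on coated plates, with 3 arrays in each of those groups. The labels name neither the promoter that drives the deletion nor the age of the mice, and they leave unsaid whether replicate arrays represent different mice, so the p-values reflect spread among arrays that may be technical. Values are log2 signals on Affymetrix arrays for 17097 genes, and the median of the whole table is 3.36, a level at which a signal may be near background. A change is the mean of the deficient arrays minus the mean of the wild-type arrays, given with its standard error (±), and a gene is called higher or lower at an adjusted p under 0.05 in limma, with the spread taken from all 6 groups and p-values adjusted over all genes. With 2 arrays against 2, an exact two-sided permutation test of a single gene could not go below 0.3333. Pairs of values joined by "against" give the wild-type arrays first and the deficient arrays second, each as replicate 1 and replicate 2. Counts from refits that each leave out 1 CD8 array are given in the order wild-type 1, wild-type 2, deficient 1, deficient 2.

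Tsc1 is part of the TSC complex, which turns off the small GTPase Rheb and so holds back the kinase complex mTORC1. mTORC1 is recruited to the lysosome by Rag GTPases when amino acids are plentiful, and it drives protein, lipid and nucleotide synthesis while restraining lysosome formation and autophagy. Naive T cells are small, quiescent lymphocytes that circulate through lymphoid organs, and the study's title places Tsc1 among the genes that keep them quiescent.

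The deficient arrays differed from each other more than the wild-type arrays did. Between deficient replicates 1 and 2, 108 genes were more than 1 log2 unit apart, 64 of them higher on replicate 2 and 44 higher on replicate 1, against 23 genes between the wild-type arrays and 11 to 207 genes among the 12 replicate pairs of CD4 arrays. Their correlation of 0.987 was the lowest within any group. The gap between the 3' and 5' control probe sets of Gapdh, a sign of RNA quality, was 0.39 and 0.40 on the wild-type arrays and 0.28 and 0.64 on the deficient arrays. Results that rest on 1 array are given with and without it. Because the arrays measure bulk RNA, fewer cells of a type and less RNA per cell cannot be told apart.

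The CD8 label was borne out by both chains of the coreceptor. Cd8a was 11.34 and 11.68 on the wild-type and 11.66 and 11.56 on the deficient arrays, and Cd8b1 was 12.32 and 12.34 on the wild-type and 12.48 and 12.35 on the deficient arrays. Cd4 was 4.74 and 3.95 on the wild-type and 4.47 and 5.13 on the deficient arrays, far below both CD8 chains on every array, although signals of different probe sets are not strictly comparable. None of these 3 genes was called.

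Of 3 probe sets for Tsc1, the brightest was lower in the cells labelled deficient. It read 6.99 and 6.88 on the wild-type and 6.36 and 6.41 on the deficient arrays, so the genotypes did not overlap. The change was -0.55 ± 0.12 (limma adjusted p = 0.0164 over all probe sets). The other Tsc1 probe sets changed by 0.097 and 0.076 and were not called (adjusted p = 0.887 and 0.898), and the position of each relative to the deleted exons is not stated in the labels. The call of the brightest probe set was lost without wild-type replicate 1 (-0.50, adjusted p = 0.109) and with the spread taken from the CD8 arrays alone (adjusted p = 0.0979).

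With all arrays, more transcripts were higher than lower in deficient resting CD8 cells. Of 17097 genes, 995 (5.82%) were called, with 622 (3.64%) higher and 373 (2.18%) lower. A change of at least 2-fold was found for 191 genes (1.12%), with 150 (0.877%) higher and 41 (0.24%) lower. The median change over all genes was -0.0061, and the arrays of the genotypes did not overlap for 7864 genes (46.0%), among them all 995 called. The count moved with the arrays used: 305, 459, 921 and 701 genes were called in the 4 refits. Without deficient replicate 1 only 41.7% of the called genes were higher, against 62.5% with all arrays and 78.6% without deficient replicate 2. In all 4 of these fits 239 genes were called, 171 higher and 68 lower.

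The largest rise was in Myl10, a myosin light chain gene, at 3.52 and 3.79 on the wild-type and 7.77 and 7.33 on the deficient arrays. It rose by 3.90 ± 0.20 (14.9-fold, limma adjusted p = 2.44e-08). Fam221a stood at 3.98 and 4.05 on the wild-type and 7.65 and 7.27 on the deficient arrays, a rise of 3.45 ± 0.20 (10.9-fold). Both genes were far higher on each deficient array than on either wild-type array. Trpm1, which encodes a cation channel, was 6.03 and 6.26 on the wild-type and 9.36 and 9.15 on the deficient arrays, a rise of 3.11 ± 0.19. Abcb1a, the P-glycoprotein efflux pump, was 6.32 and 6.44 on the wild-type and 9.22 and 8.57 on the deficient arrays, a rise of 2.52 ± 0.25. These pairs were again well apart, and a second probe set of each of the latter genes was also called, at 1.58 for Trpm1 and 2.74 for Abcb1a.

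Other genes among the 15 highest changes encode enzymes and secretory proteins. Acot7, a thioesterase that hydrolyses acyl-CoA, was 5.32 and 5.60 on the wild-type and 8.28 and 7.72 on the deficient arrays (2.54 ± 0.26). Pcsk1, a convertase that cleaves prohormones, was 3.16 and 3.24 on the wild-type and 5.61 and 5.89 on the deficient arrays (2.55 ± 0.31), and since its wild-type level was under the table median, how large its change was is uncertain. Patl2 was 3.97 and 3.86 on the wild-type and 7.25 and 5.91 on the deficient arrays (2.66 ± 0.26), with deficient replicate 1 well above replicate 2. Pgpep1l rose by 2.54 ± 0.20. Atp8a2, a flippase that moves phospholipids across membranes, rose by 2.43 ± 0.27, although its dimmest probe set changed by 0.35 and was not called. The remaining members of this group, Mki67, Rragd, Rrm2, Birc5, Ube2c and E2f2, belong to gene lists described below. All 15 were called in each fit without 1 CD8 array.

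**Figure D1:**
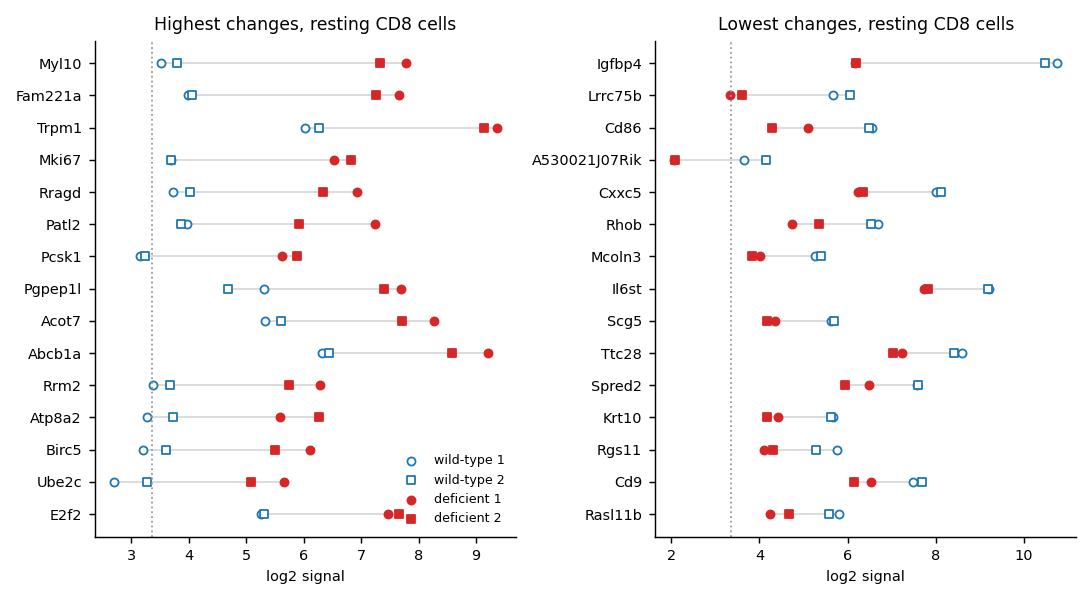
Log2 signal (x axis) of the 15 genes with the highest changes (left) and the 15 with the lowest (right) on each resting CD8 array, open blue symbols wild-type and filled red symbols deficient, with the dotted line at the table median of 3.36. Genes were chosen among those whose arrays do not overlap, so the gap in each row follows from that choice, and its size between the means runs from 1.24 log2 units for Rasl11b to 4.44 for Igfbp4.

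Igfbp4, a secreted binding protein for insulin-like growth factors that is abundant in naive T cells, fell most of all genes. Its signal was 10.75 and 10.46 on the wild-type and 6.16 and 6.18 on the deficient arrays, which puts each deficient array more than 4 log2 units below either wild-type array. It fell by 4.44 ± 0.24 on the log2 scale (21.7-fold lower, limma adjusted p = 2.44e-08), and all 6 of its probe sets were called lower. Lrrc75b was 5.66 and 6.04 on the wild-type and 3.33 and 3.60 on the deficient arrays (-2.39 ± 0.19). Cxxc5, a CXXC zinc finger protein, was 8.01 and 8.11 on the wild-type and 6.23 and 6.36 on the deficient arrays (-1.77 ± 0.23). In both genes the replicates of a genotype lay close together and far from the other genotype.

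Several of the other low genes encode surface proteins, small GTPases or an inhibitor of Ras signalling. Cd86, a costimulatory ligand better known from antigen-presenting cells, was 6.56 and 6.5 on the wild-type and 5.10 and 4.29 on the deficient arrays (-1.83 ± 0.25). Il6st, the gp130 chain shared by receptors of the interleukin-6 family, was 9.20 and 9.19 on the wild-type and 7.73 and 7.83 on the deficient arrays (-1.41 ± 0.11). Its second probe set was also called (-1.95), but its dimmest was not (-0.20). Mcoln3, a cation channel of endosomes and lysosomes, fell by 1.42 ± 0.17 on the log2 scale, with its dimmer probe set not called (-0.46). Scg5, Ttc28, Krt10, Rgs11 and A530021J07Rik fell by 1.41, 1.37, 1.36, 1.31 and 1.83. Spred2, an inhibitor of Ras to MAP kinase signalling, fell by 1.36 ± 0.23 by its brightest probe set, while its other 4 probe sets were not called. The small GTPase gene Rhob fell by 1.56 ± 0.29, and the call was lost without wild-type replicate 1 (adjusted p = 0.0593). The calls of the tetraspanin Cd9 (-1.25 ± 0.27) and of Rasl11b (-1.24 ± 0.28) were lost without either wild-type array and without deficient replicate 2 for Cd9 or replicate 1 for Rasl11b (adjusted p up to 0.0921 and 0.141).

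Components of the mTOR pathway moved in both directions. Of 34 measured members, 5 were called higher and 2 lower, against 3.64% and 2.18% of all genes, and their median change was 0.20. Rragd, a Rag GTPase that helps bring mTORC1 to the lysosome, was 3.72 and 4.02 on the wild-type and 6.93 and 6.33 on the deficient arrays. It rose by 2.76 ± 0.26 (6.79-fold, limma adjusted p = 7.27e-06) by its brighter probe set, while the other changed by 0.17 and was not called. Fnip1, a partner of folliculin in the Rag pathway, was 7.11 and 7.46 on the wild-type and 7.93 and 8.51 on the deficient arrays (0.94 ± 0.20). Its other probe sets changed by 0.53 and 0.81 and were not called. Folliculin itself, Flcn, was 6.26 and 6.52 on the wild-type and 7.08 and 6.89 on the deficient arrays, a change of 0.59 ± 0.21 that was not called (adjusted p = 0.115). Of these 3 genes, the deficient arrays lay more than 2 log2 units above the wild-type arrays for Rragd alone.

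Sestrins, which restrain mTORC1 when amino acids are scarce, were also higher. Sesn1 was 9.42 and 9.49 on the wild-type and 10.24 and 10.08 on the deficient arrays (0.71 ± 0.19), and Sesn2 was 4.23 and 3.93 on the wild-type and 4.85 and 4.91 on the deficient arrays (0.80 ± 0.19). Rptor, the raptor subunit of mTORC1, was 6.24 and 6.16 on the wild-type and 6.93 and 6.87 on the deficient arrays (0.70 ± 0.11). Besides Tsc1, the gene that fell was Rhebl1, a relative of Rheb, at 6.76 and 6.81 on the wild-type and 5.95 and 5.87 on the deficient arrays (-0.88 ± 0.15). Rheb was 9.74 and 9.91 against 9.51 and 9.54, a change of -0.31 ± 0.10 that was not called (adjusted p = 0.0977). In the refits without 1 CD8 array, 2, 3, 3 and 2 pathway members were called higher. Sesn1 and Sesn2 were called in none of these fits (adjusted p up to 0.193 and 0.173), and Fnip1 was lost without wild-type replicate 1 or deficient replicate 2 (up to 0.143).

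Lysosome and autophagy genes rose in part in deficient CD8 cells. Of 34 measured members 12 (35.3%, against 3.64% of all genes) rose and 0 fell, and the median change of the list was 0.36. Lamp2, a protein of the lysosome membrane, was 7.0 and 6.91 on the wild-type and 8.64 and 8.31 on the deficient arrays (1.51 ± 0.14, 2.86-fold, limma adjusted p = 8.36e-06). Hexa, a lysosomal hexosaminidase subunit, was 8.56 and 8.57 on the wild-type and 9.74 and 9.71 on the deficient arrays (1.16 ± 0.12). Both genotypes were tightly grouped for Hexa, and the deficient arrays of Lamp2 were more than 1 log2 unit above either wild-type array. The lysosomal proteases followed: Ctsd was 9.11 and 9.12 against 10.23 and 10.27 (1.14 ± 0.13), and Ctsl was 7.04 and 7.04 against 8.37 and 7.58 (0.94 ± 0.22). Ctsl differed between the deficient arrays, and its call was lost without either wild-type array or without deficient replicate 1 (adjusted p up to 0.159).

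The rise extended to the proton pump, the lysosomal calcium channel and an autophagy gene. Atp6v0d1, a subunit of the vacuolar ATPase that acidifies lysosomes, was 8.38 and 8.47 on the wild-type and 9.33 and 9.30 on the deficient arrays (0.89 ± 0.12). Atp6ap1, an accessory subunit of that pump, rose by 0.55 ± 0.11, the channel Mcoln1 by 0.63 ± 0.17, and Gabarapl1, which acts in autophagosome formation, by 0.74 ± 0.18. The hydrolases and activators Ctsa, Gaa, Psap and Ctsb rose by 0.85, 0.69, 0.50 and 0.48. Among the brightest members, Npc2 (12.18 and 12.11 against 12.52 and 12.52) and Ctss (10.84 and 10.86 against 11.17 and 10.84) were not called. In the refits 6, 6, 8 and 9 members were called higher and 0 lower. The calls of Atp6ap1, Mcoln1, Gabarapl1, Ctsa, Gaa, Psap and Ctsb were each lost without at least 1 CD8 array (adjusted p up to 0.0928, 0.269, 0.123, 0.0611, 0.123, 0.109 and 0.112).

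Promoter sequences of lysosome genes are shown because transcription factors of the MiT/TFE family, which mTORC1 restrains, are known to bind motifs built on CACGTG in such genes. The motif CACGTG, which reads the same on both strands, was searched in the 250 bases before each gene start in RefSeq's GRCm38.p6 annotation, where 28 of the measured list members have an entry. It was present in 10 of those 28 (35.7%), in 5 of the 11 called (45.5%), in 5 of the 17 not called (29.4%), in 8.75% of 13605 measured genes and in 6.02% of 32851 listed starts. The longer consensus known as the CLEAR element, which contains it, was searched as 1 exact string and was in 0 of the 28. That string was rare, in 58 of 13605 measured genes (0.426%), so 28 windows are too few to show a lack of it. Sequences that differ from the string by some letters were not searched. The sequences below, of 4 called genes, run 5′ to 3′ toward the start, with CACGTG in capitals.
Ctsd: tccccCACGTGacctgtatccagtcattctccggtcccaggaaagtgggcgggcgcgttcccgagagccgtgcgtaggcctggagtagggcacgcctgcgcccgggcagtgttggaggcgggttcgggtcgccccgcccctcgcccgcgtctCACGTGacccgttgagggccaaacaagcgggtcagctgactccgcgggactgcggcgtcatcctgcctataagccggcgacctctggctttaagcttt
Ctsl: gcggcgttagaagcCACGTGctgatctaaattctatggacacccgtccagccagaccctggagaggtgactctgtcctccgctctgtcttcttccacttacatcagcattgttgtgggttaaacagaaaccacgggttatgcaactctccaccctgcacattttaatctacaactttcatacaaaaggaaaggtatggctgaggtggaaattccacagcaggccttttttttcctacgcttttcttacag
Ctsa: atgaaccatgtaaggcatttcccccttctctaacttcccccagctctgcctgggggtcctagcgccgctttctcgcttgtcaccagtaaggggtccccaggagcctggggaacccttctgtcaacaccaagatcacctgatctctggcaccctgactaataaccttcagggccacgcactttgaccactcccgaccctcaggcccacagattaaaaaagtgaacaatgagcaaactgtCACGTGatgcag
Gaa: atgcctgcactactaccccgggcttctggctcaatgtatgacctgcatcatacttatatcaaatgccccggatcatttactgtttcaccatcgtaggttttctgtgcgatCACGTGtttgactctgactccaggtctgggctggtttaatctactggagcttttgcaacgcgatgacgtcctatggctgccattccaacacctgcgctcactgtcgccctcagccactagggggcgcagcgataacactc
Ctsd (chr7:142387828-142388077, minus strand) holds the motif 245 and 98 bases before its start. Ctsl (chr13:64370521-64370770, minus strand) holds it 236 bases before, Ctsa (chr2:164833523-164833772, plus strand) 12 bases before 1 of its 2 listed starts, and Gaa (chr11:119267713-119267962, plus strand) 140 bases before. A match is only a match of letters, and called and uncalled members both held it.

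Sterol and fatty acid synthesis genes rose in part. Of 28 measured members 6 (21.4%) were higher and 0 lower, against 3.64% and 2.18% of all genes, with a median change of 0.35. Cyp51, which removes a methyl group from lanosterol on the way to cholesterol, was 5.17 and 5.23 on the wild-type and 6.88 and 6.44 on the deficient arrays (1.46 ± 0.17, limma adjusted p = 8.60e-05), although its dimmest probe set changed by -0.15 and was not called. Fads1, a fatty acid desaturase, was 5.06 and 5.37 against 6.21 and 6.07 (0.92 ± 0.18), and Stard4, a cholesterol transport protein, was 6.24 and 5.89 against 6.70 and 6.97 (0.77 ± 0.14). Mvd, Ebp and Dhcr7, enzymes of the cholesterol pathway, rose by 0.70, 0.50 and 0.48. Fdps (0.53 ± 0.22), Sqle (0.43 ± 0.17) and Insig1 (0.55 ± 0.17) were not called here. Scap, the escort of the sterol-sensing factor SREBP, was 8.61 and 8.46 against 8.53 and 8.33. The sterol element motif TCACNCCAC was in 1 of 22 promoter windows of the list (4.55%, against 1.3% of measured genes, both strands). It was in 0 of the 4 windows of called members and in 1 of the 18 of members not called. In the refits 2, 3, 4 and 4 members were called higher, and of those fits Ebp was called only without deficient replicate 2 (adjusted p up to 0.29). Dhcr7 was called in none of them (up to 0.172), Fads1 was lost without wild-type replicate 1, Stard4 without wild-type replicate 2, and Mvd without wild-type replicate 1 or deficient replicate 2 (up to 0.0999, 0.0572 and 0.0948).

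Mitosis genes showed the most widespread rise among the lists. Of 32 measured members 20 (62.5%) were higher and 0 lower, against 3.64% and 2.18% of all genes. The median change was 0.74, and 31 of 32 changes were above 0. Mki67, the gene of the proliferation marker Ki-67, was 3.69 and 3.69 on the wild-type and 6.52 and 6.83 on the deficient arrays (2.99 ± 0.19, 7.93-fold, limma adjusted p = 6.85e-08). Birc5, a subunit of the chromosomal passenger complex, was 3.21 and 3.60 against 6.11 and 5.51 (2.40 ± 0.31). Ube2c, which works with the anaphase-promoting complex, was 2.69 and 3.27 against 5.66 and 5.08 (2.39 ± 0.38). These genes were near the table median on the wild-type arrays, so their levels went from dim to moderate.

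The spindle protein gene Nusap1 was 3.33 and 3.09 on the wild-type and 5.54 and 4.90 on the deficient arrays (2.01 ± 0.33), and Ccnb2, a mitotic cyclin, was 3.10 and 2.89 against 5.15 and 4.77 (1.96 ± 0.26). Top2a, Ccna2, Cdk1, Bub1, Kif23, Cdca8 and Kif11 rose by 1.91, 1.60, 1.55, 1.39, 1.39, 1.11 and 1.08. Smaller rises, from 0.55 for Incenp to 0.88 for Hmmr, were found for Incenp, Anln, Cks1b, Cks2, Ttk, Cenpf, Cenpe and Hmmr. Racgap1, among the brightest members, was 7.71 and 7.87 against 8.21 and 8.0 and was not called. The list was higher on both deficient arrays, with a median of 0.91 above the wild-type mean on replicate 1 and 0.55 on replicate 2. In the refits 10, 12, 10 and 19 members were called higher and 0 lower. Hmmr was called in none of these fits, and Cdk1, Kif23, Kif11, Incenp, Anln, Cks1b, Cks2, Ttk and Cenpf lost the call without wild-type replicate 1 and without deficient replicate 1 (adjusted p up to 0.286, for Cenpf). Another probe set of Bub1 changed by -0.051 and of Kif23 by -0.01, neither called.

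Promoters of mitosis genes are shown because many genes of this phase carry the cell cycle homology motif TTTGAA near their starts. TTTGAA, searched on both strands (TTCAAA on the other) in the same 250 bases, was present in 10 of 26 measured members with an entry (38.5%), 7 of 18 called (38.9%) and 3 of 8 not called (37.5%), against 14% of measured genes and 16% of listed starts. The sequences of 3 of the genes that rose most follow, with the motif in capitals.
Mki67: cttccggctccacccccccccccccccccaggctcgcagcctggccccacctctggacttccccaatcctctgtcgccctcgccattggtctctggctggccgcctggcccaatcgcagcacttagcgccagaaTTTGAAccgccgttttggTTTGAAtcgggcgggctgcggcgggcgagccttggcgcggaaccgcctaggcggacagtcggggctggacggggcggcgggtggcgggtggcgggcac
Ube2c: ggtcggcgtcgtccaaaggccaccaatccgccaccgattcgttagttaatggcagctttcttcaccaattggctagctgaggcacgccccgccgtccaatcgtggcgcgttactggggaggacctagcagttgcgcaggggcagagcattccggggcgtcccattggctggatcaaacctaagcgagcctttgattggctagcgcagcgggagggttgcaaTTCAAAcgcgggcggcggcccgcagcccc
Ccnb2: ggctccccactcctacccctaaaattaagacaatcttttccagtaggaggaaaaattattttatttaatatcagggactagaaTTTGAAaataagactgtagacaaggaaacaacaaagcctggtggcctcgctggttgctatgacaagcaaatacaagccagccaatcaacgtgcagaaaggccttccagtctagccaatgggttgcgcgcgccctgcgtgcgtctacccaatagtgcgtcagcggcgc
Mki67 (chr7:135716380-135716629, minus strand) holds the motif 116 and 98 bases before its start, Ube2c (chr2:164769679-164769928, plus strand) on the other strand 29 bases before, and Ccnb2 (chr9:70421555-70421804, minus strand) 167 bases before. The share was alike among called and uncalled members.

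DNA replication genes rose in part and G1 regulators did not pass the test. Of 32 measured replication and S phase genes 11 (34.4%) were higher and 0 lower, against 3.64% and 2.18% of all genes. Their median change was 0.37. Rrm2, a subunit of ribonucleotide reductase, was 3.38 and 3.68 on the wild-type and 6.29 and 5.74 on the deficient arrays (2.48 ± 0.21, limma adjusted p = 2.68e-06), with its dimmer probe set not called (0.63). E2f2, a transcription factor of cell cycle entry, was 5.26 and 5.31 against 7.46 and 7.65 (2.27 ± 0.20), and Uhrf1, which maintains DNA methylation at replication, was 4.84 and 5.17 against 6.61 and 6.82 (1.71 ± 0.22). All 3 had deficient arrays more than 1 log2 unit above the wild-type arrays. Tk1 (1.39 ± 0.31), Tyms (1.14 ± 0.20), Mcm10, Gins1, E2f1, Pole, Chaf1b and Mcm5 were also higher. The brightest members did not follow: Pcna was 11.05 and 10.89 against 10.89 and 10.68, Cdt1 10.07 and 10.04 against 9.89 and 9.87, and Mcm6 9.02 and 8.92 against 9.33 and 8.99. The refits gave 5, 5, 6 and 8 members higher, 1 was called lower without deficient replicate 1, and Tk1 was called only without deficient replicate 2 (adjusted p up to 0.125). Mcm10 and Pole were called in none of these fits, and Gins1, E2f1, Chaf1b and Mcm5 each lost the call in at least 2 of them (adjusted p up to 0.379, for Gins1). Another probe set of Mcm10 changed by -0.083 and was not called.

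Of 18 measured G1 cyclins, their kinases and inhibitors, 0 were called in either direction by limma (0 higher and 1 lower at an unadjusted p under 0.05), with changes from -0.53 to 0.43 and a median of 0.020. Ccnd2, the brightest D-type cyclin, was 11.29 and 11.34 on the wild-type and 11.44 and 11.46 on the deficient arrays (0.14 ± 0.16). Ccnd3 was 8.24 and 8.39 against 7.80 and 8.61, and Cdkn1b, the inhibitor p27, was 9.95 and 9.89 against 9.86 and 9.75. The genotypes overlapped for Ccnd3.

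Metabolic lists changed in few members. Of 29 measured ATF4 targets and tRNA charging genes 5 (17.2%) were higher and 1 lower, against 3.64% and 2.18% of all genes. Their median was 0.18. Trib3, a pseudokinase induced by the stress factor ATF4, was 3.98 and 3.84 on the wild-type and 4.94 and 4.51 on the deficient arrays (0.82 ± 0.14), and it was called in each fit without 1 CD8 array. Aars and Sars, which charge tRNA, rose by 0.66 and 0.52 and Ddit3 by 0.51, while Mthfd1l fell by 0.48. Atf4 itself was 10.29 and 10.24 against 9.66 and 9.89 (-0.49 ± 0.14, adjusted p = 0.0564), below the wild-type arrays on both deficient arrays but not called. The motif TGATGNAAT, bound by ATF4 with its partners, was in 2 of 23 promoter windows of the list (8.7%, against 0.647% of measured genes, both strands). It was in 1 of the 5 windows of members called higher and in 1 of the 17 of members not called. The calls of Sars and Ddit3 were lost in every fit without 1 CD8 array, and that of Aars in all but the fit without deficient replicate 2 (adjusted p up to 0.26, 0.218 and 0.167). Mthfd1l was called only without deficient replicate 1 (up to 0.32).

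Of 24 measured glycolysis and hypoxia genes 2 were higher (8.33%, against 3.64% of all genes) and 0 lower, with a median of 0.12. Aldoc, an aldolase, was 3.64 and 3.59 on the wild-type and 4.78 and 5.06 on the deficient arrays (1.30 ± 0.18), and Egln3, an oxygen-sensing hydroxylase, rose by 0.78 ± 0.22. Ldha was 10.55 and 10.65 against 10.98 and 10.80 and was not called. Of 30 oxidative phosphorylation genes 4 were higher (13.3%) and 0 lower, with a median of 0.21: Uqcrq (0.75 ± 0.12), Cox5b, Atp5o and Atp5d. The 3 other probe sets of Uqcrq changed by -0.095, -0.081 and -0.11 and were not called, and Cox5b, Atp5o and Atp5d were called in no fit without 1 CD8 array. Of 21 antioxidant genes 4 were higher (19.0%) and 0 lower, with a median of only 0.038. The largest rise among them was that of Nfe2l2, the transcription factor NRF2, at 8.31 and 8.35 against 9.59 and 9.21 (1.06 ± 0.18). Sesn1, described above with the mTOR pathway, was also counted here. Another of the 4 was called at a limma adjusted p of 0.0494, just under the threshold. Of 27 ribosome biogenesis genes 2 were higher and 2 lower (7.41% each way, against 3.64% and 2.18% of all genes), with a median of -0.050: Wdr12 (1.01 ± 0.15) and Nhp2 (0.54 ± 0.15) rose, and Ddx21 (-0.73 ± 0.17) and Utp20 (-0.46 ± 0.13) fell. The other probe set of Ddx21, also bright, changed by -0.087 and that of Nhp2 by 0.47, and neither was called. Egln3, Nhp2, Ddx21 and Utp20 each lost the call without at least 1 CD8 array (adjusted p up to 0.386, 0.313, 0.181 and 0.287).

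**Figure D2:**
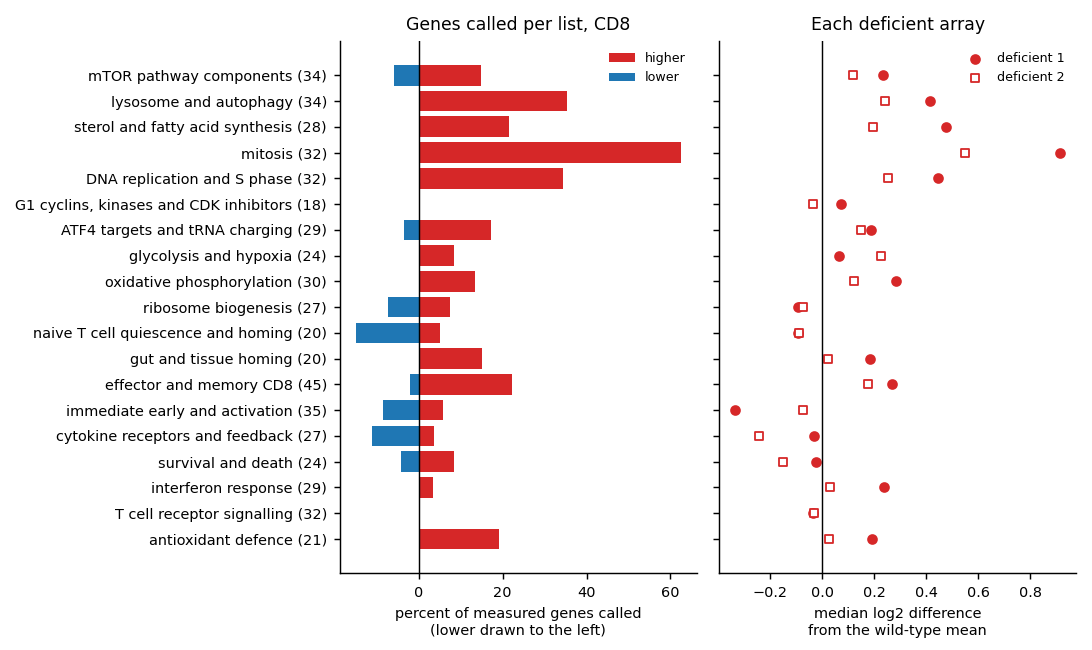
Share of measured genes called per pathway list (left, x axis in percent, red higher and blue lower, number of measured genes in parentheses) and the median log2 difference of each deficient array from the wild-type mean (right). Mitosis genes have the longest bar (62.5%), no gene of the G1 or T cell receptor lists was called, and the immediate early list lies at -0.33 on deficient replicate 1 and -0.07 on replicate 2.

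Few genes that mark naive T cells passed the test, and Igfbp4 led those that fell. Of 20 measured members 3 were lower and 1 higher, against 2.18% and 3.64% of all genes, with a median of -0.10. Nsg2 was 10.11 and 10.001 on the wild-type and 9.35 and 8.78 on the deficient arrays (-0.99 ± 0.17). Tob1, a gene that restrains T cell proliferation, rose instead, from 9.34 and 9.35 to 10.04 and 10.45 (0.90 ± 0.18). Runx1, a transcription factor, fell by 0.47 by its brightest probe set, and another was also called (-0.97), while the remaining 4 changed by 0.10, -0.29, -0.13 and 0.079 and were not called. Btg1 (12.18 and 12.15 against 12.16 and 12.32), Satb1 (11.96 and 11.92 against 11.76 and 11.94) and S1pr1, the receptor for exit from lymph nodes (9.87 and 9.74 against 9.91 and 9.40), were not called. The forkhead motif TGTTTAC was in 1 of 18 promoter windows of the list (5.56%, against 3.01% of measured genes, both strands). That match was among the 14 windows of members not called, and no called member held it. The calls of Tob1 and Runx1 were lost without either wild-type array or without deficient replicate 2 (adjusted p up to 0.0869 and 0.146).

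Homing receptors of inflamed and gut tissue were higher in 3 of 20 genes and lower in 0. Cxcr3, a chemokine receptor of effector T cells, was 6.96 and 6.87 on the wild-type and 9.24 and 7.69 on the deficient arrays (1.55 ± 0.32, limma adjusted p = 0.00728), with the 2 deficient arrays more than 1 log2 unit apart. Ccr9, which guides cells to the small intestine, was 10.68 and 10.78 against 11.70 and 11.92 (1.08 ± 0.23), a rise from an already high level. S1pr4 rose by 0.50 ± 0.14, and the gut integrin chain Itgb7 was 10.40 and 10.32 against 10.85 and 10.98 and was not called. Without either wild-type array 0 of the 3 were called (adjusted p up to 0.0593 for Cxcr3, 0.101 for Ccr9 and 0.269 for S1pr4).

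Effector and memory genes rose in part. Of 45 measured members 10 (22.2%) were higher and 1 lower, against 3.64% and 2.18% of all genes, with a median of 0.17. Bhlhe40, a transcription factor induced in activated T cells, was 4.62 and 4.65 on the wild-type and 7.01 and 6.77 on the deficient arrays (2.26 ± 0.25, limma adjusted p = 4.19e-05). The chemokine genes Ccl3 and Ccl4 were 2.88 and 2.62 against 5.0 and 4.35 (1.92 ± 0.24) and 3.91 and 4.08 against 5.79 and 5.30 (1.55 ± 0.28). Both were dim in wild-type cells and higher on each deficient array. Ccl5, a chemokine of memory CD8 cells, rose by 1.33 ± 0.24, the calcium-binding S100a6 and S100a4 by 1.81 and 0.93, and Klrg1 by 0.89. Ly6c1, Crip1 and the granzyme gene Gzma rose by 0.76, 0.67 and 1.36, and the interleukin-18 receptor chain Il18r1 fell by 0.73. The calls of Ccl5 and Crip1 were lost without wild-type replicate 1, that of Klrg1 also without deficient replicate 2, and that of S100a4 in all but the fit without deficient replicate 2 (adjusted p up to 0.0757, 0.0683, 0.0759 and 0.109).

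Other effector and memory genes did not follow. Cd44 was 6.55 and 6.92 on the wild-type and 6.59 and 6.24 on the deficient arrays (-0.32 ± 0.15), Il2rb 8.51 and 8.49 against 8.13 and 7.99 (-0.44 ± 0.20), Eomes 8.22 and 8.05 against 9.03 and 8.35 (0.56 ± 0.44), and Ifng 3.35 and 3.56 against 3.78 and 3.83 (0.35 ± 0.28). None of these 4 was called (adjusted p = 0.257, 0.234, 0.557 and 0.564). The refits gave 4, 7, 7 and 9 members of the list higher. The call of Gzma was lost in each of these fits (adjusted p up to 0.284), and that of Ly6c1 in all but the last (up to 0.186).

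Immediate early and activation genes differed between the 2 deficient arrays, and some also differed among CD4 arrays of either genotype. Of 35 measured members 2 were higher (5.71%) and 3 lower, against 3.64% and 2.18% of all genes, with a median of -0.24. The medians of the 2 deficient arrays were -0.33 on replicate 1 and -0.07 on replicate 2. Fosb was 7.60 and 7.68 on the wild-type arrays, 5.39 on deficient replicate 1 and 8.53 on deficient replicate 2. Nr4a2, an orphan nuclear receptor induced by antigen receptor signals, was 4.82 and 5.06 on the wild-type arrays, 2.90 on replicate 1 and 5.13 on replicate 2. Tnfaip3, the NF-κB inhibitor A20, was 10.85 and 10.58 on the wild-type arrays, 8.66 on replicate 1 and 10.40 on replicate 2. In each of the 3, replicate 1 was low and replicate 2 lay near or above the wild-type arrays. In unstimulated CD4 cells Fosb was 4.06, 6.83 and 6.62 on the wild-type and 4.90, 7.47 and 7.88 on the deficient arrays, and Tnfaip3 was 8.41, 10.27 and 10.22 and 8.47, 10.32 and 10.39. One array of each genotype was thus low there too, and the same held for Fos (10.48, 11.78 and 11.79 against 10.84, 11.88 and 12.19) and for Klf4, a transcription factor not on the list (4.71, 6.96 and 6.89 against 5.97, 7.46 and 7.80), so low arrays were not limited to deficient CD8 cells.

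Fos, Nr4a1, Jun and Dusp1 were also lower on deficient replicate 1 than on replicate 2. Fos was 12.03 and 11.77 against 10.54 and 11.74, and Nr4a1 7.68 and 7.68 against 6.04 and 7.63. Jun was 10.94 and 11.03 against 9.45 and 10.19, and Dusp1 11.02 and 10.96 against 9.39 and 10.56. Replicate 2 lay near the wild-type arrays for Fos and Nr4a1 but was also low for Jun and Dusp1. None of the 4 was called (limma adjusted p = 0.501, 0.425, 0.0665 and 0.238). The heat shock gene Hspa1b, not on the list, was 9.02 and 8.16 on the wild-type and 3.70 and 7.12 on the deficient arrays and was not called either. On the CD4 arrays it was 8.33, 9.66 and 9.23 with Tsc1 and 3.42, 7.97 and 8.18 without it, again with 1 low deficient array. In both lineages each deficient array of Hspa1b also lay below every wild-type array. Such a lack of overlap held for 46.0% of all genes in CD8 cells. Egr1 was 9.22 and 9.07 against 8.81 and 8.93. Dusp6, a phosphatase of MAP kinases, was 8.65 and 8.58 on the wild-type and 7.52 and 7.41 on the deficient arrays (-1.15 ± 0.21, limma adjusted p = 0.00398), so that both deficient arrays were low. Irf4, a transcription factor of activated T cells, was 4.14 and 3.79 against 4.95 and 5.17 (1.10 ± 0.17), and the costimulatory receptor gene Tnfrsf4 rose by 0.85 ± 0.17, a call lost without wild-type replicate 2 (adjusted p = 0.103). Myc and Cd69 fell by 0.80 ± 0.20 and 0.91 ± 0.25, and each was called in only 1 of the 4 fits without 1 CD8 array (adjusted p up to 0.191 and 0.31).

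**Figure D3:**
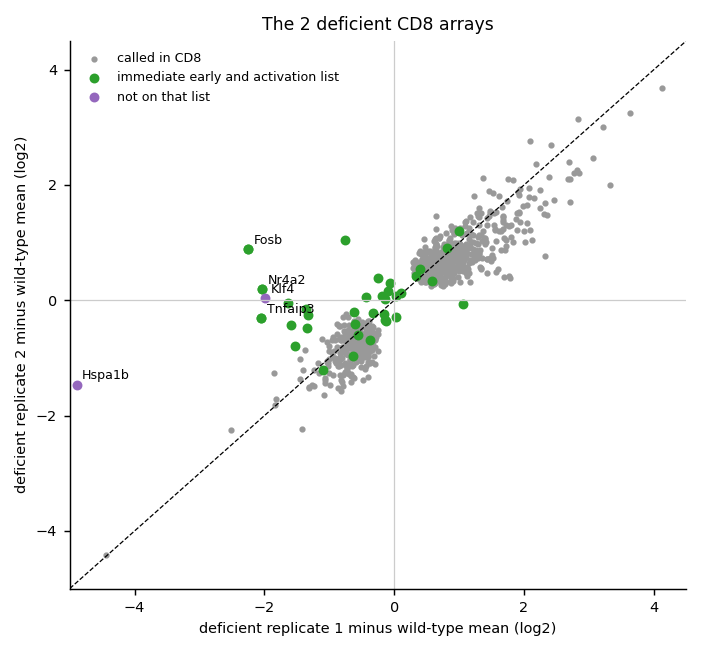
Each point is a gene, with the log2 difference of deficient replicate 1 (x axis) and of deficient replicate 2 (y axis) from the wild-type mean, grey for called genes and green for the immediate early and activation list, with a dashed line of equality and purple for 2 genes not on that list. A wide gap between replicates makes a call harder, so called genes tend toward the line by construction. Some called genes still lie off it, such as Patl2 and Cxcr3 (9.24 and 7.69 on the deficient arrays). Fosb, Nr4a2, Klf4, Tnfaip3 and Hspa1b, labelled for their distance from the line, were low on replicate 1.

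Cytokine receptors and their feedback genes were lower in 3 of 27 members and higher in 1 (3.70%), against 2.18% and 3.64% of all genes, with a median of -0.13. Besides Il6st, Il27ra was 9.83 and 9.65 on the wild-type and 9.20 and 9.18 on the deficient arrays (-0.55 ± 0.13), and Ifngr2 fell by 0.76 ± 0.21. Il10ra, the ligand-binding chain of the interleukin-10 receptor, rose from 4.33 and 4.6 to 5.65 and 5.27 (0.99 ± 0.14). Of 24 survival and death genes 2 were higher (8.33%) and 1 lower. Bak1 and Bad, both promoters of cell death, rose by 0.87 ± 0.17 and 0.64 ± 0.15, and the caspase gene Casp8 fell from 9.79 and 9.61 to 9.05 and 8.71 (-0.82 ± 0.14). Bcl2 (9.21 and 9.12 against 9.01 and 8.63) and Mcl1 (11.17 and 11.27 against 11.17 and 11.05) were not called. The calls of Ifngr2, Il27ra, Bak1, Bad and Casp8 were each lost without at least 1 CD8 array (adjusted p up to 0.268, 0.202, 0.107, 0.168 and 0.0536).

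Of 29 interferon response genes 1 was higher (3.45%, against 3.64% of all genes) and 0 lower, Oas3 (6.02 and 5.76 against 7.36 and 7.40, 1.49 ± 0.39), which was called in no fit without 1 CD8 array. No member of the 32 T cell receptor signalling genes was called by limma with all arrays (1 higher and 4 lower at an unadjusted p under 0.05), with changes from -0.64 to 0.52. Cd3d was 12.49 and 12.48 on the wild-type and 12.66 and 12.51 on the deficient arrays, Cd3g 11.82 and 11.78 against 11.76 and 11.78, and the phosphatase Ptprc 12.86 and 12.79 against 12.66 and 12.62. The receptor genes thus lay at like, high levels on all 4 arrays.

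Markers of other cell types were measured alongside these groups, and their counts stand beside 3.64% of all genes called higher and 2.18% lower. Of 11 neutrophil genes 0 were called by limma (4 higher at an unadjusted p under 0.05), with a median of 0.74, and their summed linear signal was 140 and 351 on the wild-type and 431 and 922 on the deficient arrays. S100a8 was 4.63 and 6.66 on the wild-type and 6.95 and 8.15 on the deficient arrays, highest on deficient replicate 2, and Ngp was 3.45 and 4.90 against 5.63 and 6.90. Elane, Mmp8 and Mmp9 lay below the table median in both groups. The part of neutrophil RNA in the results above was not tested. Of 13 B cell genes 1 was higher, Cd79b (7.19 and 7.39 against 8.28 and 8.28, 0.99 ± 0.21, a call lost without wild-type replicate 1 or deficient replicate 2, adjusted p up to 0.12), with a summed signal of 729 and 849 on the wild-type and 953 and 1045 on the deficient arrays. A summed linear signal weighs bright genes such as Cd79b most. The median change of the B cell list was 0.020, with 8 of 13 changes above 0. The defining B cell genes Ms4a1 (5.56 and 5.56 against 5.49 and 5.98) and Pax5 (2.45 and 2.67 against 2.44 and 2.47) were not called, and Pax5 lay below the table median throughout.

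Of 14 monocyte, macrophage and dendritic cell genes 0 were called by limma (1 lower at an unadjusted p under 0.05), with a summed signal of 306 and 439 on the wild-type and 425 and 358 on the deficient arrays. Of 11 NK or NKT genes Gzma alone was called, and the summed signal was 3246 and 3279 on the wild-type and 3739 and 3164 on the deficient arrays. Of 9 regulatory T cell genes Nrp1, a coreceptor for semaphorins, was called, at 4.20 and 4.11 against 6.61 and 5.89 (2.09 ± 0.27), while Foxp3, the defining factor of these cells, was 3.03 and 3.29 against 3.37 and 3.50. The Foxp3 signal was at or near the table median on all 4 arrays. Of 9 immature thymocyte genes Ccr9 was the only one called, and Rag1, Rag2 and Ptcra lay below the table median in both groups. Of 8 gamma delta T cell genes only 2 were measured, and both lay below the table median on all 4 arrays. So did 3 of 5 erythroid and 4 of 7 platelet genes. A lack of calls there says little about those cell types. The summed erythroid signal was 150 and 370 on the wild-type and 325 and 473 on the deficient arrays. No CD4 lineage, gamma delta T cell, erythroid or platelet gene was called by limma, nor did any pass at an unadjusted p under 0.05, and of 7 CD8 lineage genes Cd160 fell by 1.04 ± 0.23, a call lost without wild-type replicate 2 or deficient replicate 2 (adjusted p up to 0.122).

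The change in CD8 cells was set against that of unstimulated CD4 cells, which were measured on other arrays. In unstimulated CD4 cells 677 genes (3.96%) were higher and 320 (1.87%) lower. Of the CD8 genes, 342 were called higher in both lineages, 55.0% of those higher in CD8 and 50.5% of those higher in CD4 cells. For lower genes 119 were shared, 31.9% of the CD8 and 37.2% of the CD4 genes. No gene was called in opposite directions (1 higher and 1 lower CD8 gene were opposite in CD4 cells at an unadjusted p under 0.05), and 593 of the 622 higher (95.3%) and 350 of the 373 lower (93.8%) CD8 genes had the same sign in CD4 cells, against 61.5% of all genes. Across all genes, which are not independent replicates, the changes had a correlation of 0.62.

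Some genes described above had changes of like size in both lineages. Rragd changed by 2.87 ± 0.21 in CD4 cells and Fam221a by 3.69 ± 0.17, against 2.76 and 3.45 in CD8 cells. Lysosome genes were higher in 18 of 34 members in CD4 cells against 12 in CD8 cells, sterol genes in 14 against 6 of 28, and mitosis genes in 13 against 20 of 32, differences in counts that were not tested as such.

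The difference of the 2 effects, tested as an interaction, was called for 20 genes (0.117%), 12 with a higher change in CD8 cells (0.0702%) and 8 with a lower one (0.0468%). Igfbp4 fell in both lineages, but by -2.20 ± 0.31 more in CD8 cells on the log2 scale (limma adjusted p = 0.00637): its CD4 arrays were 11.64, 11.36 and 11.48 in wild-type cells against 9.43, 9.06 and 9.28. Ccr9 had the widest gap. Its CD4 arrays were 6.94, 6.65 and 6.41 in wild-type cells against 10.63, 10.67 and 10.52, a rise of 3.94 ± 0.19 against 1.08 ± 0.23 in CD8 cells (difference -2.86 ± 0.30, adjusted p = 0.000775). Wild-type CD8 cells thus started near the level that deficient CD4 cells reached. Klrd1, an NK receptor chain, was 11.63 and 11.74 against 11.59 and 11.54 in CD8 cells and 8.78, 8.94 and 8.89 against 10.49, 10.13 and 10.25 in CD4 cells (difference -1.54 ± 0.17).

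Genes that rose more in CD8 cells included Stmn1, a protein that destabilises microtubules. Stmn1 was 7.55 and 7.50 on the wild-type and 9.46 and 9.46 on the deficient CD8 arrays, against 9.0, 9.20 and 9.21 and 9.75, 9.63 and 9.90 on the CD4 arrays (difference 1.31 ± 0.15, limma adjusted p = 0.000775). Gria3, a glutamate receptor subunit, was 3.91 and 3.65 against 5.23 and 5.67 in CD8 cells, a rise of 1.67 ± 0.18, against -0.072 ± 0.14 in CD4 cells (difference 1.74 ± 0.23). Its CD4 arrays were 2.28, 2.80 and 2.21 in wild-type cells against 2.28, 2.31 and 2.49. All lay below the table median, where a change could not be read. Myl10 and Mki67 rose in both lineages, by 2.27 and 1.68 in CD4 cells, and the difference was 1.63 ± 0.26 for Myl10 and 1.31 ± 0.24 for Mki67 (adjusted p = 0.0207 and 0.0492). Pltp, a phospholipid transfer protein, changed by 1.23 ± 0.15 in CD8 and -0.21 ± 0.12 in CD4 cells. In the refits 9, 7, 24 and 19 genes had a called difference.

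**Figure D4:**
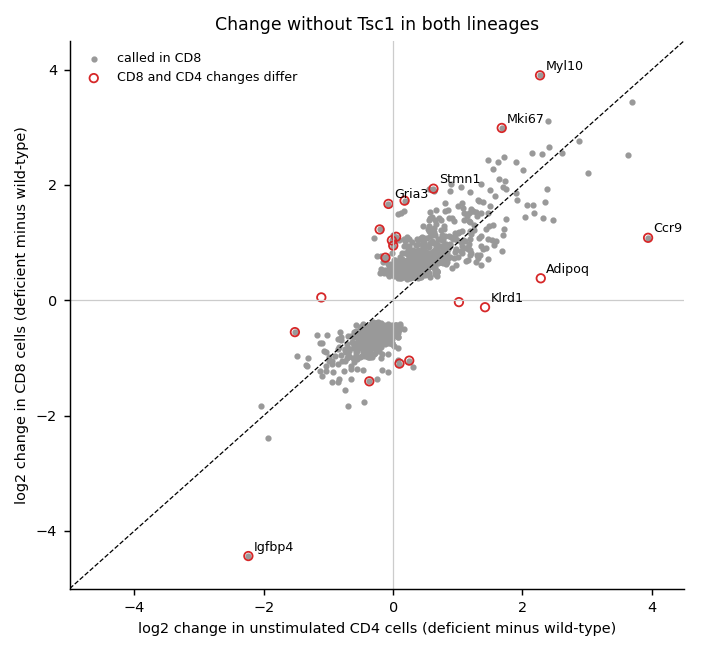
Log2 change without Tsc1 in unstimulated CD4 cells (x axis) against that in CD8 cells (y axis) for genes called in CD8 cells (grey) and genes whose changes differ between the lineages (red rings), with a dashed line of equality. Most points have the same sign on both axes, Ccr9 lies far below the line at 3.94 and 1.08, and Myl10 lies above it at 2.27 and 3.90.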

How the data were processed

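The deposited values are log2 signals that the authors made with RMA in Partek 6.5, per the submitters' processing notes, and they were used as deposited. A genome build for the arrays was among the details not given in the sources used here. In 1 sentence the labels' treatment text names mice deficient in another gene, while genotype entries and titles name Tsc1, which were followed. Of 45141 probe sets 104 are controls, 28898 name 1 gene, 551 several and 15588 none in the platform's annotation. Each gene is represented by its single-gene probe set with the highest mean over 16 arrays, and 7180 of 17097 genes have more than 1. Entrez identifiers of 28689 probe sets were found in a RefSeq table, which changed 0 symbols.

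Group means of all 16 arrays were fitted in limma 3.58.1 (R 4.3.3; 10 residual degrees of freedom, prior SD 0.146) with Benjamini-Hochberg adjustment. Precision is limited by the number of arrays. The script was tested on simulated data. The gene set and all lists were chosen with earlier results of these data known, so lists are described by counts and medians without a set test, and 1 entry of the mTOR list was corrected after the data were read. Named genes are Tsc1, the 15 highest and 15 lowest changes among called genes with non-overlapping arrays and a higher mean above the table median, up to 5 called and 3 brightest members of each list, and 5 genes at each end of the lineage difference. Genes outside that rule were named after their values were seen: Flcn, Rptor, Ctsa, Gaa, Ctsb, Atp6ap1, Mcoln1, Gabarapl1, Dhcr7, Fdps, Sqle, Insig1, further mitosis and replication genes, Mthfd1l, S1pr1, Ccnd3, Ccl5, S100a4, Klrg1, Il18r1, Cd44, Il2rb, Eomes, Ifng, Fosb, Nr4a1, Nr4a2, Klf4, Tnfaip3, Jun, Dusp1, Egr1, Hspa1b, Bcl2, Ms4a1, Pax5, Foxp3 and some markers given without values. Alternatives covered probe set choice, filters, scaling, the prior, array weights, the groups in the fit, RNA quality and each array left out.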

Additional observations from a re-analysis of the deposited data

Results flagged for a closer look

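The change in CD8 cells differed from that in unstimulated CD4 cells, by limma's test of the difference over all genes, for each of the following. The change was higher in CD8 cells for Gria3 by 1.74 (adjusted p = 0.00322), Myl10 by 1.63 (0.0207), 5430427O19Rik by 1.55 (0.0311), Pltp by 1.44 (0.00333) and Stmn1 by 1.31 (0.000775). 5430427O19Rik was 3.53 and 3.20 on the wild-type and 5.29 and 4.90 on the deficient CD8 arrays and changed by 0.18 in CD4 cells. All unstimulated CD4 arrays of Gria3 and 5430427O19Rik lay below the table median, where a change could not be read. The change was lower in CD8 cells for Ccr9 (difference -2.86, adjusted p = 0.000775), Igfbp4 (-2.20, 0.00637), Adipoq (-1.90, 0.00322), Klrd1 (-1.54, 0.000775) and 4930486L24Rik (-1.30, 0.0493). Adipoq, the adiponectin gene, was 2.11 and 2.13 against 2.64 and 2.37 in CD8 cells, below the table median, and changed by 2.28 in CD4 cells. 4930486L24Rik fell from 6.45 and 6.46 to 5.42 and 5.39 in CD8 cells and changed by 0.25 in CD4 cells.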

How the results depend on the processing

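No paired analysis was possible because the labels give no replicate number that the groups share. Without 1 CD8 array in turn, the count of called genes ranged from 305 to 921 (main 995), that of higher genes from 208 to 551 (622), that of lower genes from 97 to 537 (373), and that of genes whose change differed between CD8 and CD4 cells from 7 to 24 (20). The spread of the CD8 arrays alone gave 269 genes (195 higher, 74 lower), and a 2-fold minimum 191 (150 and 41). With the Gapdh 3' to 5' difference as a covariate 594 were lower. Without stimulated deficient CD4 replicate 1, chosen after seeing the data, 1559 were called (667 lower), among them all 995. The count of lineage differences was 13 without dim genes and 31 without the 2 arrays with wide Gapdh differences. Tsc1 reversed in its dimmer probe sets (0.10 and 0.076), and it was not called with probe sets averaged (-0.13, adjusted p = 0.554), without wild-type replicate 1 (-0.50, adjusted p = 0.109, range over the 4 refits -0.61 to -0.50) or with the CD8 arrays alone (-0.55, adjusted p = 0.0979). Of 165 called genes compared one by one, which are Tsc1, the other called genes the text names and Prdx2, Gpx1, Ms4a6d, Fcgr4, Myb, Pclaf and Cdca5, 84 were called in all 4 fits without 1 CD8 array. Of their 2618 comparisons with an alternative, 2156 kept direction and call, 440 kept direction only and 22 reversed, all on another probe set of the same gene and none of them called there: those of Tsc1 above, Spred2 (0.0026), Cyp51 (-0.15), Tyms (-0.33 and -0.069), Uqcrq (-0.095, -0.081 and -0.11), Cox5b (-0.19), Runx1 (0.10 and 0.079), Fuca2 (-0.010), Castor2 (-0.013 and -0.13), Aldh1l1 (-0.041), Aldh2 (-0.067), Axin2 (0.031), Smad3 (0.032), Bub1 (-0.051), Kif23 (-0.010) and Mcm10 (-0.083). The cause of the reversals was not tested. With the spread of the CD8 arrays alone, 71 of the 165 genes kept direction but not the call. Signals near the table median leave the size of a change uncertain, as for 40 called genes dimmer than it in both groups.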

Other observations

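The genes below were chosen after their values were seen. Values joined by "against" give the 2 wild-type arrays first. They belong to no list with a tally, so they say nothing on lysosomal genes as a group, and the lysosomal channel gene Mcoln3 fell. Among genes of lysosomal proteins, the peptidase Dpp7 was 4.27 and 4.72 on the wild-type and 6.41 and 6.32 on the deficient arrays (1.87 ± 0.15, limma adjusted p = 1.96e-06), Grn, the progranulin gene, 7.29 and 7.45 against 8.41 and 8.13 (0.90 ± 0.15), and Tcirg1, a subunit of the vacuolar ATPase, 6.85 and 6.52 against 7.56 and 7.97 (1.08 ± 0.17). Ostm1, Atp6v0b, Laptm5 and Galc rose by 0.89, 0.98, 0.86 and 0.95, and the fucosidase gene Fuca2 by 1.30 ± 0.17, although its other probe set changed by -0.01 and was not called. The calls of Laptm5 and Galc were lost without either wild-type array (adjusted p up to 0.114 and 0.226). Castor2, related to an arginine sensor of the mTORC1 pathway, was 4.6 and 4.97 against 6.30 and 6.63 (1.68 ± 0.16), while its 2 dimmest probe sets were not called (-0.013 and -0.13). The receptor gene Igf1r was 6.91 and 6.68 against 8.26 and 8.25 (1.46 ± 0.14), and Tbc1d4, a regulator of glucose transporter traffic, 4.04 and 3.94 against 5.67 and 5.38 (1.53 ± 0.17). The aldehyde dehydrogenase genes Aldh1l1, Aldh2 and Aldh3b1 rose by 1.93 ± 0.17, 1.38 ± 0.27 and 0.94 ± 0.15, with another probe set of Aldh1l1 at -0.041 and of Aldh2 at -0.067, neither called, and Aldh2 was lost without wild-type replicate 1 (adjusted p up to 0.117).

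Some genes best known from B cells and myeloid cells were higher, beside the antigen receptor gene Cd79b described above. Jchain, which joins secreted antibodies, was 6.10 and 5.92 on the wild-type and 7.38 and 8.13 on the deficient arrays (1.74 ± 0.38), Pou2af1, a B cell coactivator, 6.13 and 6.44 against 7.69 and 7.35 (1.24 ± 0.17), and Bank1 and Tnfrsf13c rose by 1.11 and 1.00. Cd79a (0.44 ± 0.13, adjusted p = 0.0582) and Ms4a1 (0.17) were not called, and the probe sets of Pax5 and Ighm lay below the table median on all 4 arrays, where a change could not be read. The receptor genes Lilrb4a, Lair1 and Cd200r4 rose by 1.69 ± 0.28, 1.53 ± 0.18 and 1.70 ± 0.23. Of the 14 listed monocyte, macrophage and dendritic cell genes 0 were called, with a median change of 0.025. Its brightest members Lyz2, Tyrobp and Fcer1g changed by -0.035, 0.20 and 0.037. The part of other cells in these values was not tested. The calls of Jchain and Bank1 were lost without either wild-type array (adjusted p up to 0.115 and 0.188).

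Spred1, a relative of Spred2, was 4.85 and 4.72 against 3.96 and 4.10 (-0.75 ± 0.12), with 1 of its other 4 probe sets also called (-1.38). Sgk1, a kinase downstream of mTORC2, was 9.43 and 9.49 against 8.42 and 8.4 (-1.05 ± 0.17). Axin2, a target of Wnt signalling, fell by 0.72 and Smad3, a transducer of TGF-β signals, by 0.75, with other probe sets at 0.031 and 0.032 that were not called, and Axin2 was lost without either wild-type array (adjusted p up to 0.19).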
